A study of Mus musculus with 12 samples.

Results

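Cytochrome P450 genes were followed in mouse cortex through their non-CG methylation (mCH), in which the methylated cytosine stands before a base other than guanine. A P450 was taken as any gene whose symbol consists of Cyp, a family number, subfamily letters and a gene number, and it was kept if it had at least 500 non-CG calls in each of 12 libraries. Of 95 such symbols, 90 were kept, out of 19826 genes that passed the same minimum. Cyp2w1 was just inside the limit with 561 calls in its shallowest library, and Cyp21a1 was just outside it with 496. Cyp8b1 had 314 calls in its shallowest library, Cyp2d10 and Cyp2d11 were listed only under repeated identifiers, and Cyp2j7 was not analysed here. The measured level of a gene is the percentage of its non-CG calls that were methylated, and no expression was measured.

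The series holds whole-genome bisulfite sequencing of cortex from C57BL/6 mice. Bisulfite turns unmethylated cytosine into a base that sequences as thymine, and a cytosine still read as cytosine counts as a methylated call. At postnatal day 40 (P40) there were 4 libraries labelled miR29 KO, from mice lacking microRNAs of the miR-29 family, and 4 wild-type (WT) libraries. At 4 months there were 2 libraries labelled Dnmt3a mi5 and 2 WT libraries. Dnmt3a encodes the DNA methyltransferase that writes most mCH in neurons. The name mi5 is kept as given, and the titles of these libraries read DNMT3AmiR29MUT. Neither the cells in which the KO allele is lost nor the number of animals behind a library is stated, and the replicates are known only as separate samples, so p-values cover only the spread among these libraries, which may be technical.

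P450s are heme enzymes that insert oxygen into small molecules. Members of families 1 to 4 clear drugs, dietary compounds and fatty acids, chiefly in liver, and many lie in tandem arrays that arose by gene duplication. Members of the remaining families mostly act on the body's own sterols, steroids, retinoids and vitamin D, and a few of these, such as Cyp46a1, work in brain. In neurons mCH builds up over gene bodies after birth and is known to be low in genes that neurons transcribe.

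The 90 genes comprised 74 of families 1 to 4 and 16 others. The 16 were 7 sterol and retinoid P450s, 5 of steroid hormone synthesis, 3 of vitamin D and bile acid metabolism, and Cyp20a1, an orphan. RefSeq gene order placed 60 genes of families 1 to 4 in 7 tandem arrays, defined as at least 4 P450s with no more than 3 other tested genes between neighbours. The promoter sequences below are examples of base composition, in which the classes overlapped. RefSeq windows of 300 bases around the annotated start were found for 70 of the 90 genes. The number of CG dinucleotides per window had a median of 2 in families 1 to 4 (61 windows, from 0 to 22), 10 in the sterol and retinoid P450s (5 windows, from 5 to 31) and 7 in all 27025 windows. The windows of Cyp46a1 at chr12:108334066-108334365 (plus strand), Cyp26a1 at chr19:37697558-37697857 (plus strand), Cyp2c38 at chr19:39463026-39463325 (minus strand) and Cyp2e1 at chr7:140763569-140763868 (plus strand), all in GRCm38.p6, span this range. Each is printed 5′ to 3′, and capitals mark every CG, the letters TATAAA and, in Cyp26a1, a direct repeat.
Cyp46a1: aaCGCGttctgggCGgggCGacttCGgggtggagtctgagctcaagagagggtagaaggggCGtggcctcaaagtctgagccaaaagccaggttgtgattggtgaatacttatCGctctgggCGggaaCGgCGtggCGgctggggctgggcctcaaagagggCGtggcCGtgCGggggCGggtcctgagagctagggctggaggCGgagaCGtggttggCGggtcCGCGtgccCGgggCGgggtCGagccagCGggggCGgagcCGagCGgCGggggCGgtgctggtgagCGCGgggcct
Cyp26a1: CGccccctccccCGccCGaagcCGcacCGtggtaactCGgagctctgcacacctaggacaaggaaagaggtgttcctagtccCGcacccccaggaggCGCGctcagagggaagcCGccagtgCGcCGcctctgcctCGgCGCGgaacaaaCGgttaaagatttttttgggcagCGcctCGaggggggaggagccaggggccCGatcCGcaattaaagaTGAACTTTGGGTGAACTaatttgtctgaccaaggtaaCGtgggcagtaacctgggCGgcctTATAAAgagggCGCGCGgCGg
Cyp2c38: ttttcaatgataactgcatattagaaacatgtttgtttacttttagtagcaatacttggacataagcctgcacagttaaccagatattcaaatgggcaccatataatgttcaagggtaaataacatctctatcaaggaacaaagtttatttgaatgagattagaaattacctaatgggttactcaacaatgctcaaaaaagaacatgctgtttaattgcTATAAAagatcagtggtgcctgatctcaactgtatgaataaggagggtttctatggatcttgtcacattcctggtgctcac
Cyp2e1: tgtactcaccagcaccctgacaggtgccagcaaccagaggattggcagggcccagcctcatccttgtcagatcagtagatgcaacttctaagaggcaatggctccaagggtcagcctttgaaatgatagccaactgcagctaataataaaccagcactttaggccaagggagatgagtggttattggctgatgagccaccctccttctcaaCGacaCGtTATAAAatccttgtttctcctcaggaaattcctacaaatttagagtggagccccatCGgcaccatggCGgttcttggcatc
The window of Cyp46a1 held 31 CG and that of Cyp26a1 26, while Cyp2e1 had 4 and Cyp2c38 had 0. Cyp46a1 and Cyp26a1 were the highest of their class, in which Cyp27a1 had 10, Cyp26b1 9 and Cyp26c1 5. In families 1 to 4, Cyp2r1 reached 22. TATAAA, searched on both strands, was present in 37.1% of the P450 windows and in 14.2% of all windows. It started at offset -31 from the annotated start in both Cyp2c38 and Cyp2e1. In the Cyp2c array 9 of 13 windows held it. The direct repeat AGNTCANNNNNAGNTCA, the spacing known for retinoic acid receptor sites, was present on either strand in Cyp26a1 and Cyp2c50 and in 0.218% of all windows. Over the 70 genes, the CG count of the window and the WT level of mCH at P40 had a Spearman rho of 0.56. This is a description across genes, whose base composition and position are shared within arrays, and mCH was measured over genes, not over these windows.

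Total calls ran from 399563492 to 732985426 per library. As a check of the KO label, the 4 miR-29 genes together had 6 to 69 calls in KO libraries and 121 to 244 in WT libraries at P40. At 4 months they had 106 to 129 calls in mi5 libraries and 151 to 200 in WT libraries. KO library 4 stood apart, with a mean gene level of 1.72% against 2.15% to 2.46% in the other 3 KO libraries and 1.28% to 1.54% in WT libraries. In 1 library of each group the Y-linked genes had few calls. These were KO library 3 and WT library 2 at P40, and mi5 library 1 and WT library 2 at 4 months. Because only DNA was measured, the cortical label could not be checked on transcripts. Genes that define cortical neurons had a median level of 0.836% in WT at P40, glial and vascular genes 2.35%, and liver genes other than P450s 1.87%, beside 1.31% for all tested genes. In bulk cortex a difference in the mix of cells and a difference in mCH per cell cannot be told apart.

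The median P450 had 12578 calls per library. The 95% Wilson interval of a P450's level in 1 library had a median width of 0.401 percentage points, with a range of 0.125 to 2.17, and covers counting error only. Spread between libraries of a group was wider than this, with a median overdispersion of 5.33 for P450s and 5.13 for all genes. P450s of 1 subfamily resemble each other in sequence, so calls may be shared or lost between them, and the levels of array members are uncertain to that extent. Genes that overlap also share calls, as Cyp4x1 does with its antisense gene Cyp4x1os.

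In every group the liver-type families 1 to 4 carried less mCH than the sterol and retinoid P450s, and less than the typical gene. The median level of the 74 genes was 1.34% ± 0.259 in KO and 0.874% ± 0.0968 in WT at P40 (SD over libraries, n = 4 each). At 4 months it was 1.26% ± 0.0638 in mi5 and 0.812% ± 0.0662 in WT (SD, n = 2 each). For the 7 sterol and retinoid P450s it was 3.20% ± 0.648 in KO and 2.09% ± 0.144 in WT at P40, and 3.80% ± 0.0709 in mi5 and 2.10% ± 0.108 in WT at 4 months. All tested genes had medians of 2.07% in KO, 1.31% in WT at P40, 2.21% in mi5 and 1.22% in WT at 4 months. The ratio of the median of families 1 to 4 to that of the sterol and retinoid P450s was 0.418 in KO, 0.419 in WT at P40, 0.331 in mi5 and 0.386 in WT at 4 months. The 5 steroidogenic P450s had medians of 3.51% in KO and 2.06% in WT at P40, and 3.73% in mi5 and 1.95% in WT at 4 months. The 3 of vitamin D and bile acid metabolism had 3.08% and 2.39% at P40, and 3.44% and 1.75% at 4 months. A level above the typical gene was thus not particular to the sterol and retinoid P450s. No test was made over genes of a class, which are not replicates.

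Within families 1 to 4, genes in arrays had a lower median than genes outside them, with exceptions on both sides. The 60 array genes had a median of 1.19% in KO and 0.766% in WT at P40, and 1.06% in mi5 and 0.664% in WT at 4 months. The 14 genes of families 1 to 4 outside arrays had a median of 2.31% in KO and 1.35% in WT at P40, and 2.33% in mi5 and 1.42% in WT at 4 months, which is close to the typical gene. Of these 14, Cyp4f14, Cyp4f13 and Cyp4f18 were low in WT at P40, at 0.733%, 0.872% and 0.926%. Arrays also differed among themselves. In WT at P40 the median was 0.461% in the Cyp3a array, 0.471% in the Cyp2a, Cyp2b, Cyp2f, Cyp2g, Cyp2s and Cyp2t array, 0.679% in the Cyp2c array, 0.748% in the Cyp4a, Cyp4b and Cyp4x array, 0.939% in the Cyp4f array, 1.35% in the Cyp2d array and 1.35% in the Cyp2j array. The lowest single level in WT at P40 was that of Cyp2a12, a liver hydroxylase of steroids and bile acids, at 0.312% ± 0.0483, and the highest that of Cyp1b1, a P450 known outside the liver in vessels and eye, at 4.00% ± 0.422 (SD, n = 4). Cyp2a12 lay at the 1.15 percentile of all tested genes and Cyp1b1 at the 99.9 percentile. The 1st percentile of gene levels was 0.219% to 0.287% per library, and since conversion rates were not used here, the part of such low levels that is unconverted cytosine was not tested.

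**Figure D1:**
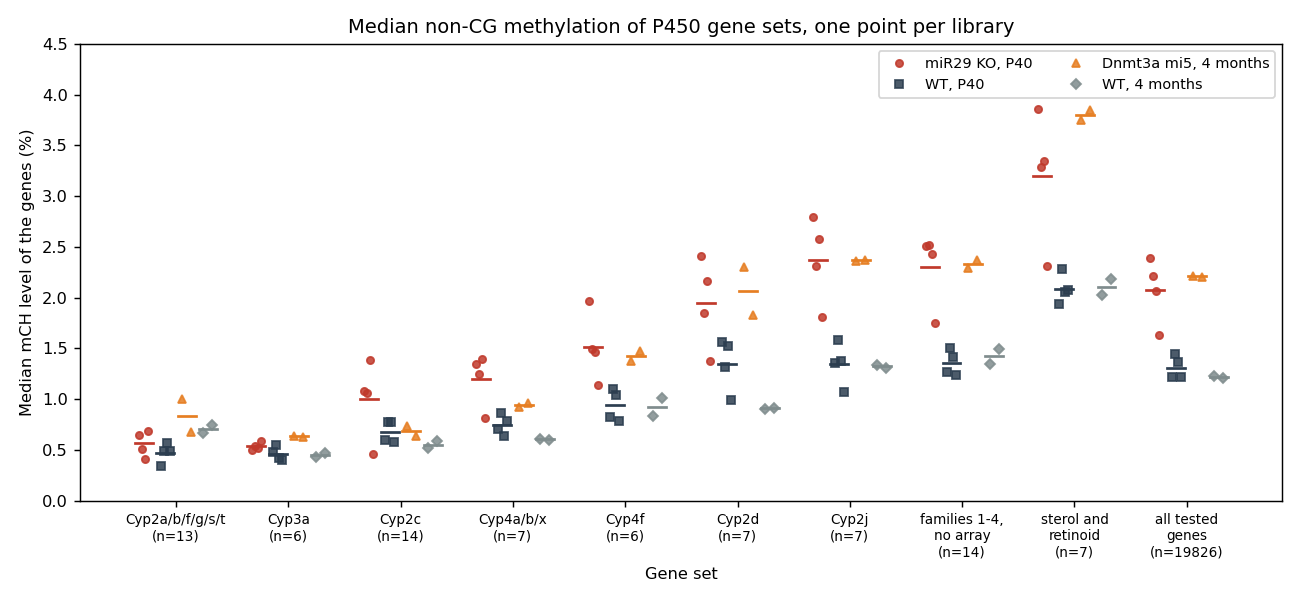
Median mCH level (vertical axis, percent) of the genes of each set (horizontal axis, with the number of genes) in every library; each point is 1 library and each bar the mean over a group's libraries. At P40 the Cyp2a to Cyp2t and Cyp3a arrays have the lowest group means, with libraries at 0.345% to 0.685%, and in all 4 groups the sterol and retinoid P450s have the highest mean of the 10 sets drawn, with libraries at 1.93% to 3.86%. The other P450s outside families 1 to 4 are not drawn, and the steroidogenic ones had a higher mean in KO, at 3.51%.

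The first comparison set miR29 KO cortex against WT at P40. Of the 90 P450s, 65 were higher in KO past the threshold (Benjamini-Hochberg adjusted p under 0.05 over all tested genes) and 0 were lower, where 76.5% of all tested genes were higher and 0.0454% lower. By unadjusted p under 0.05, 68 P450s were higher and 0 lower, and limma on log2 values called 59 higher and 0 lower. In 40 of the 90 every KO library lay above every WT library, which held for 57.1% of all genes, and in 0 the order was reversed (0.0504% of all genes). P450s had a median log2 odds ratio of 0.67, against 0.65 over all genes. The 72.2% of P450s that passed was thus near the share of all genes. Within it, all 16 genes outside families 1 to 4 were higher, and 49 of the 74 in families 1 to 4. Of the 60 array genes 36 were higher, and of the 30 genes outside arrays 29, the exception being Cyp2w1.

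Every sterol and retinoid P450 was higher in KO. Cyp46a1, the neuronal hydroxylase that turns cholesterol into the oxysterol by which it leaves the brain, had levels of 2.75%, 2.67%, 2.38% and 2.03% in KO libraries and 1.17%, 1.69%, 1.66% and 1.31% in WT libraries. All 4 KO libraries lay above all 4 WT libraries, with a log2 odds ratio of 0.78 (SE 0.14, adjusted p = 9.28e-05). Cyp7b1, which hydroxylates oxysterols and neurosteroids, had 4.18%, 3.94%, 3.53% and 2.94% in KO and 2.005%, 2.77%, 2.35% and 2.12% in WT. Its libraries did not overlap either, and the log2 odds ratio was 0.69 (SE 0.12, adjusted p = 8.68e-05). Cyp39a1, which acts on the product of Cyp46a1, had 3.41%, 3.24%, 3.09% and 2.66% in KO and 1.93%, 2.28%, 2.04% and 2.07% in WT. Cyp27a1, the mitochondrial sterol hydroxylase, had 3.86%, 3.72%, 3.35% and 2.31% in KO and 1.63%, 1.96%, 2.17% and 1.58% in WT. Both separated in full, with log2 odds ratios of 0.60 (SE 0.10, adjusted p = 7.38e-05) for Cyp39a1 and 0.89 (SE 0.15, adjusted p = 6.48e-05) for Cyp27a1.

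The 3 Cyp26 genes encode the hydroxylases that break down retinoic acid. Cyp26b1 had 4.30%, 3.92%, 3.39% and 2.94% in KO and 2.18%, 2.77%, 2.82% and 2.19% in WT, with no overlap and a log2 odds ratio of 0.58 (SE 0.13, adjusted p = 0.000545). Cyp26a1 had 2.73%, 3.29%, 2.81% and 2.16% in KO and 1.58%, 2.25%, 1.48% and 1.93% in WT. Cyp26c1 had 3.90%, 3.21%, 4.44% and 2.15% in KO and 2.56%, 2.54%, 2.05% and 2.30% in WT. In both of these KO library 4 fell among the WT libraries, and the log2 odds ratios were 0.61 (SE 0.23, adjusted p = 0.0231) and 0.52 (SE 0.18, adjusted p = 0.0141). The call for Cyp26a1 was lost without KO library 2 (adjusted p = 0.0686), WT library 1 (0.0619) or WT library 3 (0.0689), and that for Cyp26c1 without KO library 3 (0.0618).

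The 5 steroidogenic P450s were all higher in KO as well. Cyp11a1, which makes pregnenolone from cholesterol, averaged 3.11% ± 0.515 in KO and 1.80% ± 0.360 in WT. Cyp19a1, aromatase, averaged 3.65% ± 0.539 in KO and 2.21% ± 0.299 in WT (SD, n = 4 each), and Cyp17a1, the hydroxylase and lyase of androgen synthesis, 3.46% ± 0.413 in KO and 1.91% ± 0.384 in WT. Libraries of the 2 groups did not overlap in these 3 genes. Cyp11b1, the last enzyme of corticosterone synthesis, had 4.34%, 4.55%, 3.90% and 3.02% in KO and 1.99%, 2.25%, 2.15% and 1.69% in WT, and had the smallest p of the 90 genes (log2 odds ratio 1.01, SE 0.15, adjusted p = 5.71e-05). Cyp11b2, aldosterone synthase, ranged in KO from 1.87% in library 4 to 5.45% in library 2, against 1.77% to 2.33% in WT, so the groups overlapped, and its adjusted p was 0.00445. Of the vitamin D and bile acid genes, Cyp7a1, the rate-limiting enzyme of bile acid synthesis, averaged 3.94% ± 0.744 in KO and 2.60% ± 0.369 in WT. Cyp27b1, which makes the vitamin D hormone, was low at 0.902% ± 0.197 in KO and 0.445% ± 0.167 in WT, but also separated in full (log2 odds ratio 1.03, SE 0.34, adjusted p = 0.0104). Cyp24a1, which breaks that hormone down, had 3.43%, 3.33%, 3.41% and 2.51% in KO and 2.03%, 3.05%, 2.46% and 2.42% in WT, with a small log2 odds ratio of 0.38 (SE 0.13, adjusted p = 0.0150), and its adjusted p was 0.0784 without WT library 1. Cyp20a1 averaged 2.43% ± 0.370 in KO and 1.39% ± 0.195 in WT.

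**Figure D2:**
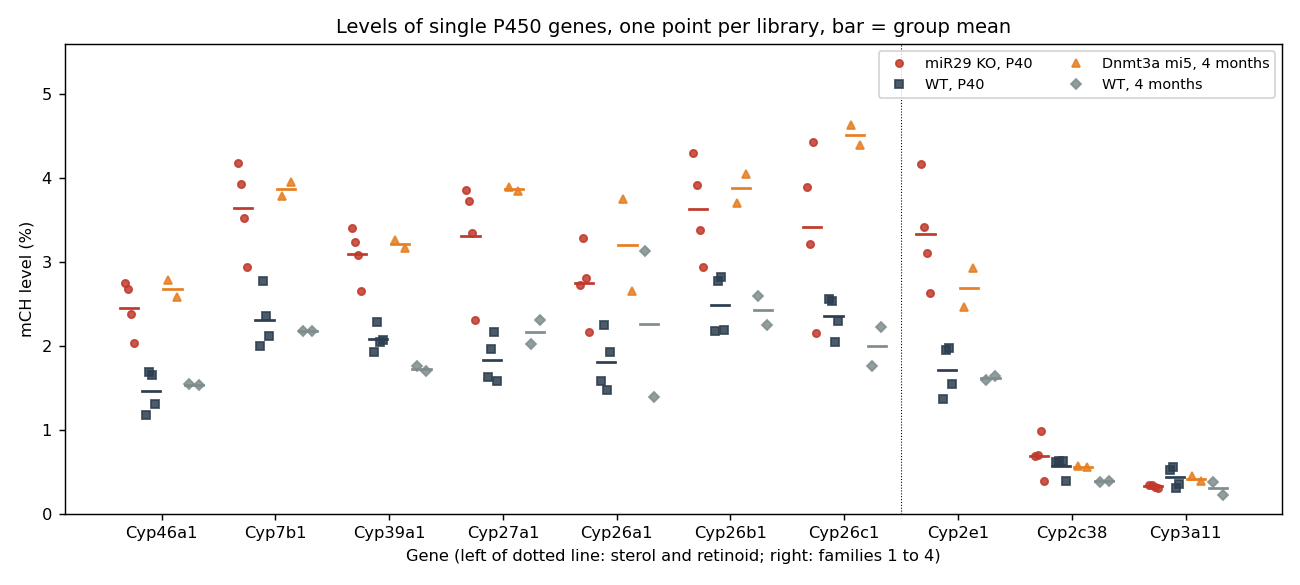
mCH level (vertical axis, percent) of 10 P450 genes in every library, with a bar at each group mean; genes left of the dotted line are sterol and retinoid P450s and those right of it belong to families 1 to 4. Cyp46a1, Cyp7b1, Cyp39a1, Cyp27a1, Cyp26b1 and Cyp2e1 separate KO from WT at P40 in full, while Cyp2c38 and Cyp3a11 stay at or below 0.982% in all 12 libraries.

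In families 1 to 4, the genes outside arrays were higher in KO in 13 of 14 cases. Cyp2e1, the ethanol-oxidising P450 of liver, had 4.17%, 3.42%, 3.11% and 2.64% in KO and 1.37%, 1.95%, 1.97% and 1.54% in WT. These did not overlap, and the log2 odds ratio of 1.01 (SE 0.16, adjusted p = 5.87e-05) was among the largest of the 90. Cyp1a1, the P450 best known for induction through the aryl hydrocarbon receptor, averaged 2.56% ± 0.339 in KO and 1.34% ± 0.225 in WT. Cyp1b1, although the most methylated P450, had a log2 odds ratio of 0.38 (SE 0.14, adjusted p = 0.0154), with 5.96%, 5.77%, 4.82% and 3.91% in KO and 3.92%, 4.45%, 4.19% and 3.46% in WT. Its call was lost without KO library 1 (adjusted p = 0.0610), KO library 2 (0.0594) or WT library 4 (0.0584). Cyp2r1, which starts vitamin D activation in liver, averaged 2.12% ± 0.498 in KO and 1.42% ± 0.270 in WT, and Cyp2u1, a fatty acid hydroxylase known from brain and thymus, 1.46% ± 0.118 in KO and 1.03% ± 0.129 in WT. Cyp4v3, a fatty acid hydroxylase, averaged 3.49% ± 0.654 in KO and 2.01% ± 0.214 in WT. Cyp2w1 had 1.36%, 1.19%, 1.35% and 0.949% in KO and 1.80%, 1.08%, 1.35% and 1.25% in WT, with a log2 odds ratio of -0.21 (SE 0.23, adjusted p = 0.395).

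Arrays ranged from all members called to none, where 76.5% of all tested genes were higher in KO. That share went with level. Among all genes in 4 equal bins by level in WT at 4 months, it was 32% in the lowest bin and 83.5% to 95.8% above it. In the Cyp2j array on chromosome 4, whose enzymes epoxidise arachidonic acid, all 7 genes were higher in KO, with a median of 2.37% in KO and 1.35% in WT. Cyp2j8, the member with most calls, had 1.86%, 1.88%, 1.67% and 1.32% in KO and 1.08%, 1.12%, 1.06% and 0.799% in WT, with no overlap. In the Cyp4a, Cyp4b and Cyp4x array, also on chromosome 4, the 7 members were higher, with a median of 1.20% in KO and 0.748% in WT. Of 3 further P450s inside this array whose symbols lie outside the naming pattern, Cyp4a12a and Cyp4a12b were higher (adjusted p = 0.0294 and 0.0120), and Cyp4a30b had 0.597% in KO and 0.567% in WT (adjusted p = 0.887). It includes Cyp4x1, a P450 known from mouse brain, at 2.40% ± 0.203 in KO and 1.42% ± 0.192 in WT (log2 odds ratio 0.78, SE 0.12, adjusted p = 5.91e-05), and Cyp4a29, a fatty acid hydroxylase gene of much lower level, at 0.778% ± 0.144 in KO and 0.410% ± 0.0244 in WT (log2 odds ratio 0.93, SE 0.25, adjusted p = 0.0025). All 6 genes of the Cyp4f array on chromosome 17 were higher, led by Cyp4f39 at 2.91% ± 0.611 in KO and 1.70% ± 0.143 in WT. In the Cyp2d array on chromosome 15, 5 of 7 genes were higher, among them Cyp2d22, at 2.98% ± 0.698 in KO and 1.85% ± 0.307 in WT. Of the other two, Cyp2d12 averaged 1.20% in KO and 0.848% in WT (adjusted p = 0.0622), and Cyp2d34 averaged 1.64% in KO and 1.04% in WT (adjusted p = 0.0707). Across the called members of these 4 arrays the log2 odds ratio ran from 0.48 for Cyp4f16 to 1.15 for Cyp2d40.

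In the array on chromosome 7, 3 of 13 genes were higher in KO, namely Cyp2f2, known from the airway epithelium, Cyp2s1 and Cyp2a5, a coumarin hydroxylase. Cyp2f2 had 1.84%, 2.14%, 1.69% and 1.47% in KO and 1.09%, 1.07%, 0.836% and 0.792% in WT, with no overlap. The call for Cyp2a5 was lost without KO library 1 (adjusted p = 0.125), KO library 4 (0.0962) or WT libraries 1 (0.152), 3 (0.0625) or 4 (0.0696). The Cyp2b genes, known targets of the constitutive androstane receptor, had a median of 0.456% in KO and 0.380% in WT, with adjusted p-values from 0.0509 for Cyp2b19 to 0.986 for Cyp2b13. Cyp2g1, known from olfactory epithelium, had 0.652%, 0.652%, 0.533% and 1.16% in KO and 0.508%, 0.838%, 0.632% and 0.840% in WT, and Cyp2a12 had 0.189%, 0.235%, 0.349% and 0.476% in KO and 0.264%, 0.327%, 0.284% and 0.373% in WT, so the libraries of both genes were mixed. Their log2 odds ratios were 0.06 (SE 0.28) for Cyp2g1 and -0.01 (SE 0.38) for Cyp2a12. The 3 Nlrp genes that RefSeq places inside this array, Nlrp9c, Nlrp4a and Nlrp9a, were as low, at 0.292% to 0.422% in KO and 0.326% to 0.401% in WT, and were not called, and 3 of 6 flanking genes were higher.

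In the Cyp3a array, whose liver enzymes oxidise many drugs, 0 of 6 genes were called in either direction, 0 had an unadjusted p under 0.05, and limma called 0. Cyp3a41b, inside the array but outside the naming pattern, had 0.317% in KO and 0.368% in WT (adjusted p = 0.438). Cyp3a11, the main drug-oxidising Cyp3a of mouse liver, had 0.347%, 0.344%, 0.316% and 0.306% in KO and 0.516%, 0.556%, 0.312% and 0.357% in WT. The 4 KO values lay close together at or below most WT values, and the log2 odds ratio was -0.42 (SE 0.27, adjusted p = 0.157). Cyp3a25 had 0.642%, 0.762%, 0.645% and 0.697% in KO and 0.709%, 0.877%, 0.589% and 0.654% in WT. Cyp3a44 had 0.497%, 0.401%, 0.454% and 0.527% in KO and 0.438%, 0.456%, 0.404% and 0.425% in WT, so both genes overlapped. Cyp3a13, which lies outside the array, averaged 2.12% ± 0.288 in KO and 1.29% ± 0.106 in WT and was higher (adjusted p = 0.000102). Flanking genes of the array were higher in 4 of 6 cases, with levels of 0.448% to 1.83% in KO and 0.407% to 1.34% in WT.

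Because nearly every gene shared an upward shift in KO, each P450 was also set against the median gene of its library. On that scale 0 P450s were higher and 5 were lower past the threshold, beside 1.04% and 3.55% of all genes. Unadjusted p under 0.05 gave 7 higher and 14 lower, which is 23.3% of P450s beside 20.6% of all genes, and limma called 0 in either direction at a pseudocount of 0.1. The 5 were Cyp3a11 (log2 odds ratio -1.11, SE 0.20, adjusted p = 0.00248), Cyp3a25 (-0.73, SE 0.15, adjusted p = 0.00845), Cyp2w1 (-0.91, SE 0.23, adjusted p = 0.0227), Cyp24a1 (-0.31, SE 0.09, adjusted p = 0.0457) and Cyp3a44 (-0.56, SE 0.16, adjusted p = 0.0487). A lower value on this scale means a smaller log2 odds ratio than that of the median gene. On the plain scale Cyp24a1 was higher in KO, and the others passed in neither direction. The Cyp3a genes among them had low WT means at P40, at 0.435% for Cyp3a11, 0.430% for Cyp3a44 and 0.707% for Cyp3a25. How far unconverted cytosine enters such levels, and moves them on this scale, was not tested. The number of lower P450s was 2 without KO library 1 or without KO library 2, 3 without WT library 4 at P40 or either WT library at 4 months, and 9 without KO library 4. Over the fits without 1 library, the adjusted p reached 0.145 for Cyp24a1 and 0.143 for Cyp3a44.

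The Cyp2c array on chromosome 19, with 14 P450s of fatty acid and drug oxidation, showed a dependence on single libraries. Its genes had a median of 0.999% ± 0.387 in KO and 0.679% ± 0.109 in WT (SD over libraries, n = 4 each). By library the median was 1.08%, 1.06%, 1.39% and 0.462% in KO and 0.596%, 0.770%, 0.776% and 0.573% in WT. KO libraries 1 to 3 thus lay above all WT libraries and KO library 4 below them. In all 14 genes KO library 4 was the lowest of the KO libraries, as it was for 82.4% of all tested genes. In 13 of the 14 it was also below the WT mean, which held for 14.6% of all genes. The median ratio of a Cyp2c gene to its WT mean was 1.70 over KO libraries 1 to 3 and 0.739 in KO library 4, against 1.65 and 1.23 for all genes. KO library 3 was the highest of the 4 in 13 of the 14 genes, and in 11.6% of all genes. Other members of the array are named here to show it whole, a choice made after their values were seen.

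Of the 14 Cyp2c array genes, 8 were higher in KO past the threshold. The number was 14 without KO library 4, 3 without KO library 3 and 5 without WT library 1, and limma called 3. It was 4 without the libraries of low Y-linked coverage, which include KO library 3. Levels of the 8 ran from 0.920% for Cyp2c39 to 2.37% for Cyp2c70 in KO and from 0.537% for Cyp2c39 to 1.32% for Cyp2c70 in WT. Cyp2c70, at an end of the array, had 2.53%, 2.65%, 2.77% and 1.54% in KO and 1.20%, 1.51%, 1.41% and 1.15% in WT, and was the array gene with no overlap (log2 odds ratio 0.88, SE 0.16, adjusted p = 0.000130). Cyp2c39 had 1.04%, 0.792%, 1.37% and 0.479% in KO and 0.422%, 0.607%, 0.717% and 0.403% in WT (log2 odds ratio 0.83, SE 0.27, adjusted p = 0.0104, and 0.0682 without KO library 3). In Cyp2c38 the values were 0.690%, 0.706%, 0.982% and 0.385% in KO and 0.614%, 0.630%, 0.627% and 0.390% in WT. Its adjusted p was 0.286 with all libraries and 0.0165 without KO library 4. Cyp2c37 had 1.98%, 1.88%, 2.36% and 0.863% in KO and 0.997%, 1.34%, 1.43% and 1.31% in WT, so that KO library 4 was below every WT library, which held in 7 of the 14 genes and in 3.54% of all genes.

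Cyp2c23, outside the array, had 4.39%, 3.21%, 3.29% and 2.19% in KO and 1.63%, 2.02%, 2.03% and 1.99% in WT, with no overlap. In the chromosome 7 array KO library 4 went the other way: it was the highest KO library in 7 of 13 genes, as it was in 2.51% of all genes, and its median ratio to the WT mean was 1.52, against 0.995 over KO libraries 1 to 3. KO library 4 had the fewest calls of all libraries in Cyp2b13 (1898, against a mean of 14341) and Cyp2b9 (7789, against 17236). Its level in Cyp2b13, 0.685%, was also its array median. Whether lost calls moved these levels was not tested. In the Cyp2j, Cyp4f and Cyp4a to Cyp4x arrays KO library 4 was the lowest KO library in every gene and above the WT mean in every gene. In the Cyp2d array it was the lowest KO library in 7 of 7 genes and below the WT mean in 3 of them, and in the Cyp3a array it was below the WT mean in 4 of 6.

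**Figure D3:**
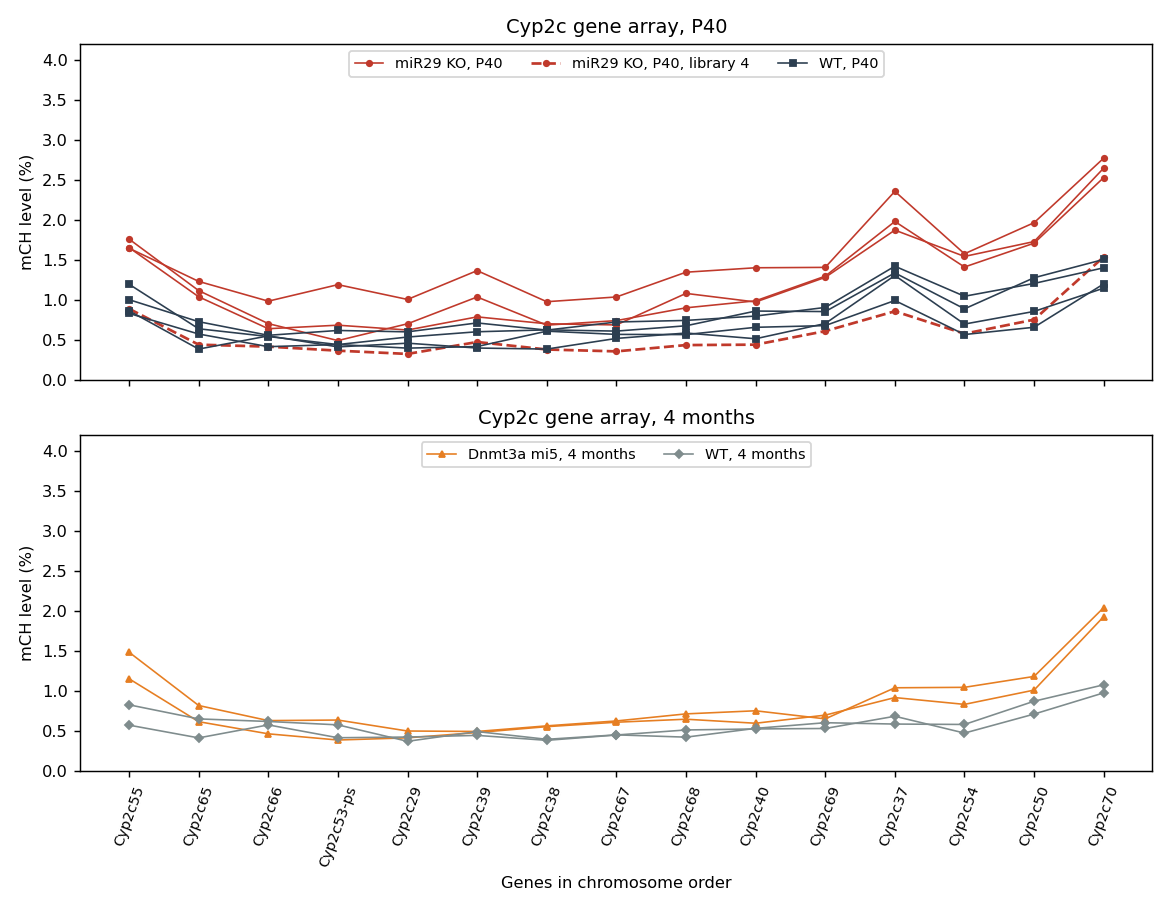
mCH level (vertical axis, percent) of the genes of the Cyp2c array in chromosome order (horizontal axis), 1 line per library, at P40 above and at 4 months below; Cyp2c53-ps is a pseudogene and not among the 90 P450s. KO library 4 (dashed) lies below the WT mean in 13 of the 14 array genes, with a median of 0.462%, and above it in Cyp2c70.

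The second comparison set Dnmt3a mi5 cortex against WT at 4 months, with 2 libraries each and 6848 to 8384 calls in the median gene, against 11864 to 14324 at P40. Of the 90 P450s 37 were higher in mi5 and 0 lower past the threshold, where 58.8% of all tested genes were higher and 0.0% lower. Unadjusted p under 0.05 gave 43 higher and 0 lower, and limma 47 higher and 0 lower. Both mi5 libraries lay above both WT libraries in 72 of the 90 (86.2% of all genes) and below them in 1, Cyp2w1 (1.03% of all genes). P450s had a median log2 odds ratio of 0.70, against 0.83 over all genes. The 41.1% of P450s called was thus below the share of all genes. The count was 20 without mi5 library 1, 21 without mi5 library 2, 10 without WT library 1 and 13 without WT library 2. Each of these fits leaves 1 library in an arm, which is assumed to vary like the libraries of the other groups. Without the libraries of low Y-linked coverage, which leaves 1 library in each 4-month group, 0 P450s and 0.00504% of all genes were called.

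Outside families 1 to 4, 13 of 16 genes were higher in mi5, the exceptions being Cyp11b2, Cyp26a1 and Cyp27b1. The number was 5 without WT library 1 and 8 without WT library 2. Cyp46a1 had 2.79% and 2.58% in mi5 and 1.54% in both WT libraries (log2 odds ratio 0.81, SE 0.26, adjusted p = 0.0139). Cyp7b1 had 3.78% and 3.96% in mi5 and 2.18% in both WT libraries, and Cyp39a1 3.26% and 3.16% in mi5 and 1.76% and 1.70% in WT. In these sterol P450s both mi5 libraries lay above both WT libraries, as they did in 86.2% of all genes. The sterol and retinoid P450s had a median log2 odds ratio of 0.85, against 0.83 over all genes. Cyp27a1 had 3.90% and 3.85% in mi5 and 2.03% and 2.31% in WT. The Cyp26 genes differed: Cyp26c1 had 4.63% and 4.40% in mi5 and 1.77% and 2.22% in WT (log2 odds ratio 1.20, SE 0.35, adjusted p = 0.00795), while Cyp26a1 had 3.75% and 2.66% in mi5 and 3.13% and 1.40% in WT, so its groups overlapped (log2 odds ratio 0.50, SE 0.37, adjusted p = 0.245). Cyp24a1 had 3.80% and 3.87% in mi5 and 1.74% and 1.76% in WT (log2 odds ratio 1.16, SE 0.27, adjusted p = 0.00336). Cyp19a1 had 4.10% and 3.83% in mi5 and 2.04% and 2.14% in WT, and the smallest p of the 90 genes was that of Cyp39a1 (log2 odds ratio 0.91, SE 0.19, adjusted p = 0.003002).

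In families 1 to 4, 24 of 74 genes were higher in mi5, where 58.8% of all tested genes were higher. Among all genes in 4 equal bins by level in WT at P40, that share was 12.2% in the lowest bin and 56.4% to 88.1% above it. The 7 Cyp2j array genes were all among the 24, with a median of 2.37% in mi5 and 1.32% in WT. In the Cyp4a to Cyp4x array 2 of 7 were higher, Cyp4x1 and Cyp4b1, in the Cyp4f array 3 of 6, Cyp4f39 among them, and in the Cyp2d array 3 of 7, Cyp2d22 among them. In the Cyp2c array 1 of 14 was higher, Cyp2c70, at 2.04% and 1.93% in mi5 and 0.977% and 1.08% in WT, with an array median of 0.683% in mi5 and 0.552% in WT. In the same fits with 1 library in an arm, families 1 to 4 had 11 calls without either mi5 library and 5 without either WT library, and the Cyp2j array had 3 without mi5 library 1, 4 without mi5 library 2, 2 without WT library 1 and 1 without WT library 2. In the Cyp3a and chromosome 7 arrays 0 of 6 and 0 of 13 were called. By unadjusted p under 0.05 these were 0 and 1, and limma called 0 and 2. The chromosome 7 array had a median of 0.837% in mi5 and 0.703% in WT, and its mi5 libraries were apart, at 1.004% and 0.671%. Cyp2e1 had 2.46% and 2.93% in mi5 and 1.59% and 1.64% in WT (log2 odds ratio 0.76, SE 0.30, adjusted p = 0.0377). Relative to the median gene, 0 P450s were called in either direction at 4 months, beside 0.0% of all genes higher and 0.0353% lower. Unadjusted p under 0.05 gave 1 higher and 9 lower P450s and was reached by 9.15% of all genes, and limma at a pseudocount of 0.1 called 0.

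The share of P450s called went with their level in other WT mice. When genes were divided into 4 equal bins by their level in the WT libraries at 4 months, which do not enter the P40 means, 15 of 31 P450s of the lowest bin were higher in KO (48.4%, against 32% of all genes there). In the next 3 bins it was 66.7%, 95.7% and 100% of P450s, against 83.5%, 94.7% and 95.8% of all genes. In the same way, by level in WT at P40, 0 of 30 P450s of the lowest bin were higher in mi5, against 12.2% of all genes there, and none of these 30 had an unadjusted p under 0.05. The next 3 bins had 37.5%, 76% and 81.8% of P450s and 56.4%, 78.3% and 88.1% of all genes. Among P450s the median log2 odds ratio at P40 was 0.52 in the lowest bin and 0.73 in the highest, and at 4 months it was 0.31 and 0.86.

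**Figure D4:**
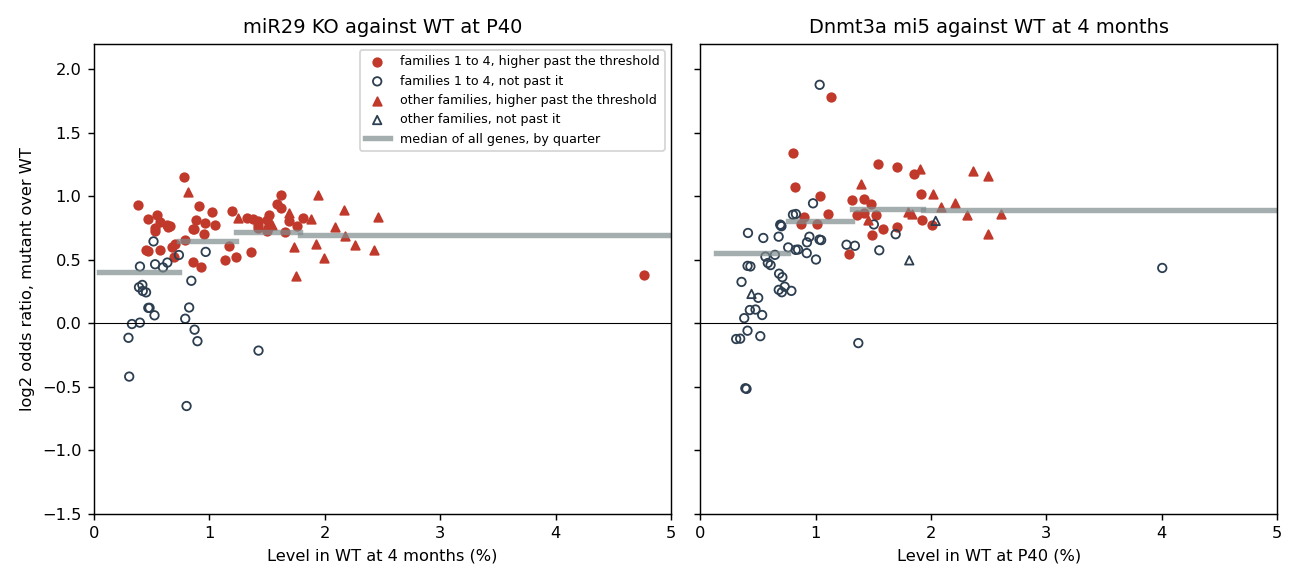
Log2 odds ratio of mutant over WT (vertical axis) for each of the 90 P450s against its level in the WT libraries of the other age (horizontal axis, percent), miR29 KO at P40 on the left and Dnmt3a mi5 at 4 months on the right; filled symbols are higher past the threshold and grey bars give the median of all tested genes in each of 4 bins of level. P450s that were not called crowd at low levels, where 0 of 30 in the lowest bin were called at 4 months.

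Levels of P450s in the WT groups resembled each other, with a Pearson r of 0.925 over the 90 genes. Between WT at 4 months and WT at P40, 0 P450s passed the threshold in either direction, beside 0.131% of all genes higher and 0.0% lower. Unadjusted p under 0.05 gave 4 higher and 2 lower, which is 6.67% of P450s beside 2.33% of all genes, and limma called 0. The 4 were genes of the chromosome 7 array, Cyp2b19, Cyp2b23, Cyp2b10 and Cyp2f2, the first 2 of which were named after their values were seen. Cyp2b10 had 0.612% and 0.970% at 4 months and 0.233%, 0.483%, 0.364% and 0.486% at P40, and Cyp2f2 had 1.68% and 1.56% at 4 months and 1.09%, 1.07%, 0.836% and 0.792% at P40. Over the 90, the groups did not overlap in 6 genes higher at 4 months (6.03% of all genes) and 13 lower (12.1%). Neither Cyp2b10 nor Cyp2f2 overlapped, but the adjusted p-values were 0.959 or more, and age cannot be told apart from the set of libraries.

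The difference between the mi5 and the KO change was tested directly, and 0 P450s and 0.0% of all genes passed in either direction. Unadjusted p under 0.05 was reached by 1 P450, Cyp24a1, and by 1.46% of all genes, and limma called 0. For Cyp24a1 the mi5 log2 odds ratio exceeded that of KO by 0.78 (SE 0.30, adjusted p = 0.998). Age and library set differ between the comparisons and cannot be told apart from the alleles.

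Genes that work with P450s were read beside them, with 76.5% of all tested genes higher in KO and 58.8% in mi5 as the background for each count. All 6 electron donors were higher in KO, with a median of 1.81% in KO and 1.19% in WT, and 4 of 6 were higher in mi5. The member with the smallest p at P40 was Cyb5r3, a cytochrome b5 reductase, at 2.72% in KO and 1.56% in WT. Of 10 receptors and cofactors that regulate families 1 to 4, 9 were higher in KO and 8 in mi5, with Nr1i2, the pregnane X receptor, at 2.72% in KO and 1.55% in WT. Conjugating enzymes were higher in 19 of 21 cases in KO and 15 of 21 in mi5, and their median of 2.86% in KO and 1.62% in WT was above that of families 1 to 4. The glutathione transferase gene Gsta1 had 3.77% in KO and 1.99% in WT.

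Among the pathways of the sterol and retinoid P450s, 15 of 16 retinoid genes were higher in KO and 14 in mi5, with a median of 3.5% in KO and 2.33% in WT. Aldh1a2, which makes the retinoic acid that Cyp26 enzymes break down, had 4.36% in KO and 2.73% in WT. Of 15 cholesterol genes 11 were higher in KO and 8 in mi5, with a lower median of 1.49% in KO and 0.897% in WT. The P450 genes Cyp51, Ptgis and Tbxas1, which do not follow the naming pattern, were higher in KO, and 2 of these 3 in mi5. Tbxas1, thromboxane synthase, had 4.04% in KO and 2.64% in WT. Genes defining cortical neurons were higher in 4 of 12 cases in either mutant, glial and vascular genes in 11 of 11 in KO and 10 in mi5, and liver genes in 14 of 15 in KO and 13 in mi5. Their part in the P450 values was not tested.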

How the data were processed

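Mouse cortex DNA was sonicated, bisulfite-treated with an unmethylated lambda spike-in and sequenced, per the labels' protocols; the submitters' processing notes name BSMAP and the mm9 build. The deposited tables give, per RefSeq transcript, a count of methylated non-CG calls and a total of non-CG calls that behaves as an expected count, since the authors deposited totals of which 35.7% to 62.2% per library were whole; what produced the fractions is not stated by the labels. Each total was rounded. RefSeq identifiers were mapped to symbols (GRCm38.p6, used for names and gene order only), the transcript with most calls stood for its gene, and 1395 rows under 410 repeated identifiers and 300 without a symbol were left out.

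Each of the 19826 genes with at least 500 calls in all 12 libraries was fitted with a quasi-binomial logistic model over the 4 groups. Dispersion was moderated with limma's squeezeVar (limma 3.58.1, R 4.3.3) and p-values were adjusted by Benjamini-Hochberg over all genes, with a threshold of 0.05. The relative scale adds each library's median gene as an offset. The tests were checked on simulated data drawn gene by gene, without the shift that nearly every gene shared here. That check cannot show how the tests behave under such a shift. Levels, intervals and figures used Python 3.11.15, pandas 2.3.3, scipy 1.17.1 and matplotlib 3.10.9. The alternatives were other call minimums, limma on log2(percent + pseudocount), summed transcripts, each library left out, low Y-linked coverage left out, a replicate block and fits per age. Members and lists were chosen with earlier results of these data known. Named genes were all members outside families 1 to 4, the member with most calls per subfamily, the 5 smallest and 5 largest p per comparison, the 3 highest and 3 lowest in WT, and those called relative to all genes. Cyp2c23, Cyp2d12, Cyp2d34, Cyp2d40, Cyp3a13, Cyp4f13, Cyp4f14, Cyp4f16, Cyp4f18 and the P450s outside the naming pattern that lie in arrays were named after their values were seen.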

Additional observations from a re-analysis of the deposited data

Results flagged for a closer look

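Of 108 groups of 4 libraries examined for a single library far from the other 3, 5 were picked out. This is near the share of about 1 in 20 that chance gives. In 3 of the 5 the library was the fourth KO library, which had the lowest mean gene level of its group. Cyp20a1 had 1.88% in that library and 2.58% to 2.69% in the other KO libraries. Cyp24a1 had 2.51% there and 3.33% to 3.43% in the others, and Cyp4a32, a fatty acid hydroxylase gene, had 0.813% there and 1.08% to 1.12% in the others. Among WT libraries at P40, Cyp2c38 had 0.390% in the fourth and 0.614% to 0.630% in the others, and Cyp3a57, a member of the Cyp3a array, had 0.540% in the second and 0.353% to 0.383% in the others.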

How the results depend on the processing

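The 65 P450s higher in KO at P40 became 56 to 72 over the fits without 1 library and 53 to 68 under the other alternatives, and the 37 higher in mi5 became 10 to 47 and 0 to 54, with 0 coming from the fit without the libraries of low Y-linked coverage, which leaves 1 library per group. The number lower at P40 was 0 to 1 without 1 library. Relative to the median gene, the 5 P450s lower in KO became 2 to 9 without 1 library, 3 at a minimum of 100 calls, and 0 and 4 by limma at pseudocounts of 0.1 and 0.5. At a pseudocount of 0.5 limma called 1 higher in KO, and 1 higher and 4 lower in mi5. The fit to the 4-month libraries alone called 2 lower in mi5. The ratio of the class medians, 0.418 in KO, 0.419 in WT at P40, 0.331 in mi5 and 0.386 in WT at 4 months, was 0.483, 0.490, 0.427 and 0.466 with means over genes, and 0.405 in WT at 4 months at a minimum of 2000 calls. With a replicate block 68 P450s were higher in KO and 42 in mi5. Same-numbered libraries deviated with r of -0.05 to 0.11 at P40 and -0.09 at 4 months, and 2 of 8 and 0 of 4 correlated best with their own number. The largest r at P40 was 0.21, between KO library 3 and WT library 2, both of low Y-linked coverage. At 4 months the 2 libraries of a group deviate as mirror images. Every r there has the same size, so the 0 of 4 reflects a single sign and cannot show whether libraries were paired.

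Some genes that did not pass the threshold changed sign, and the cause was not tested. The log2 odds ratio at P40, over the fits without 1 library, ran from -0.27 to 0.18 for Cyp2a12, -0.30 to 0.20 for Cyp2a22, -0.17 to 0.16 for Cyp2b10, -0.046 to 0.079 for Cyp2b13, -0.028 to 0.31 for Cyp2b9, -0.20 to 0.20 for Cyp2g1 and -0.12 to 0.065 for Cyp3a25. At 4 months it ran from -0.28 to 0.036 for Cyp2a12, -0.58 to 0.62 for Cyp2a22, -0.51 to 0.47 for Cyp2b9, -0.16 to 0.64 for Cyp27b1, -0.014 to 0.13 for Cyp2c39, -0.14 to 0.54 for Cyp3a25 and -0.48 to 0.66 for Cyp4a29. Without the libraries of low Y-linked coverage it was 0.095 for Cyp3a25 and -0.043 for Cyp2b13 at P40, and -0.24 for Cyp26a1, -0.16 for Cyp3a25, 0.13 for Cyp2b10 and 0.19 for Cyp2a12 at 4 months. Limma at 4 months gave 0.000378 for Cyp2a22 at a pseudocount of 0.1, and for Cyp4a29 0.052 at 0.1 and 0.012 at 0.5. Of the alternative values, 1769 kept direction and side of the threshold, 123 lost it, 32 gained it and 37 changed sign. The test of the difference needs all 4 groups and was not run on the libraries of a single age, and the age comparison could not be estimated with the replicate block.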

Other observations

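Gene order gave a further view of the P450s. Over the 90 genes, the WT level at P40 and the mean level of 2 neighbouring genes had a Pearson r of 0.358, as a description over genes that share libraries and, within arrays, neighbours. The log2 odds ratios of mi5 and of KO had a Pearson r of 0.458 over the 90 genes; the 2 comparisons share no library. Some genes called in neither comparison were deep on average. Cyp2b9 and Cyp2b10 had a mean of 17236 and 15510 calls per library, against a median of 12578 for the 90. Calls per library ran from 7789 to 29485 in Cyp2b9 and from 8094 to 20573 in Cyp2b10. Both had low levels, with means of 0.382% and 0.392% in WT at P40.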
